A study of Mus musculus with 9 samples.

Results

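The response of young bone marrow to castration was measured on 3 of the 9 arrays of a study of C57BL/6 mice. Each array carried the RNA of a castrated mouse against that of a matched sham-operated mouse, so an array is a pair of mice and the values are log ratios. The 3 marrow arrays, here replicates 1 to 3, came from young mice that were 17 weeks old at collection and had been castrated or sham-operated at 7 weeks. All 3 arrays labelled as young marrow belong to this set, and none was left out. The marrow had been separated from the femur, tibia and humerus, although the extraction protocol speaks of pulverised bone for every sample. The castrated mouse was labelled with Cy5 on replicates 1 and 3 and with Cy3 on replicate 2, which is called the swapped array below. The other 6 arrays hold 3 pairs of young bone (17 weeks) and 3 pairs of old specimens labelled bone marrow (59 weeks), all with surgery at 7 weeks; the separation of marrow from bone is described for the young mice only. Whether young marrow and young bone came from the same mice is not stated, and no hormone level was used here. A ratio carries no level, so the tissue label could not be checked against the abundance of marker genes.

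Bone marrow is where blood cells form. B lymphocytes pass there through pro-B and pre-B stages that depend on interleukin-7 from stromal cells and on a cascade of transcription factors, while neutrophils, the most abundant cells of the tissue, mature in parallel and fill their granules in a fixed order. Androgens from the testis are known to hold back B lymphocyte formation in the marrow, and the stromal cells that support it carry the androgen receptor. In RNA from whole tissue, fewer cells of a type and less RNA per cell cannot be told apart.

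Nothing given here says which way the deposited ratios run, and every result was therefore read in both possible ways. Under the castrated-over-sham reading the deposited value is castrated over sham on every array. Under the channel reading it is Cy5 over Cy3, and the sign of the swapped array is turned. The first of these readings is taken as likely, because the labels describe every array as castrated against sham. Across features, which are not independent replicates, the deposited ratios of replicates 1 and 2 correlated at r = 0.46, those of replicates 2 and 3 at 0.378, and those of replicates 1 and 3 at 0.334. Turning the swapped array for the channel reading makes the correlations with it -0.46 and -0.378. The direction thus has no settled sign from the files alone, and a ratio of sham over castrated on every array would turn every sign given below. The log base is not stated either, and the values were read as log2. The marrow arrays hold 8290 to 9730 values each out of 11552 features, with medians of -0.01 to 0.01 and SDs of 0.192, 0.231 and 0.271.

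The reading decides how much the 3 pairs had in common. Of 7811 tested features with a ratio on all 3 marrow arrays, 2974 (38.1%) lay on a single side of 0 on all 3 under the castrated-over-sham reading, 1617 above (20.7%) and 1357 below (17.4%). Under the channel reading the same count was 1006 (12.9%), 397 above (5.08%) and 609 below (7.8%). Replicates 1 and 3, whose values are identical under both readings, had the same sign for 4054 features. The deposited ratio of the swapped array lay on that side for 73.4% of these and on the other side for 24.8%. Ratios of at least 0.5 in size and of a single sign on every array were found for 52 features above 0 and 19 below under the castrated-over-sham reading, and for 0 features under the channel reading.

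**Figure D1:**
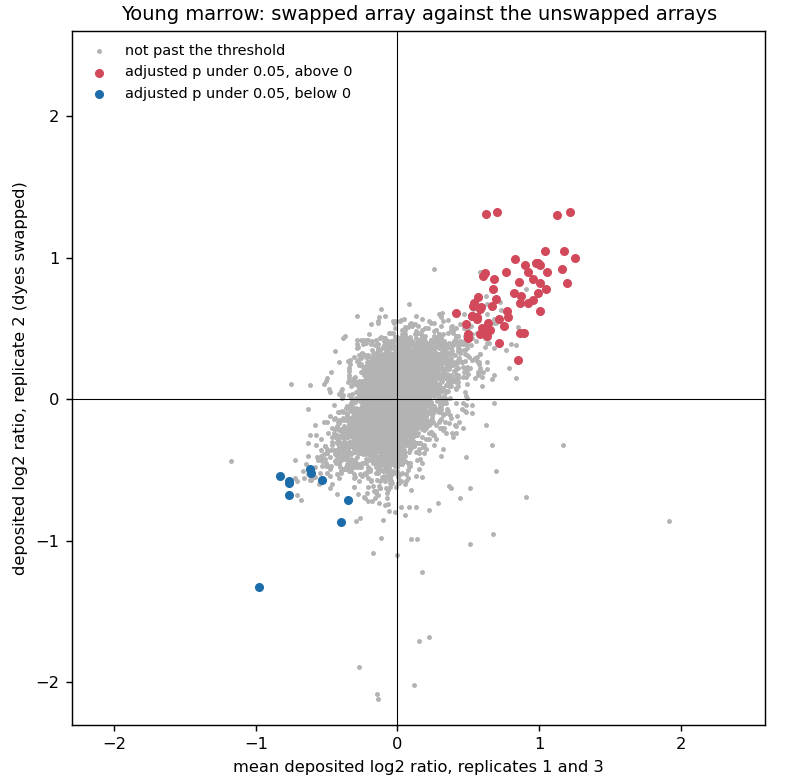
Each point is a tested feature with a ratio on all 3 young marrow arrays, with the mean deposited log2 ratio of replicates 1 and 3 on the x axis and that of replicate 2, the swapped array, on the y axis. Red and blue points passed the limma test under the castrated-over-sham reading and lie along the rising diagonal, whereas the channel reading would turn the y axis upside down and put them along the falling one.

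Against 0, 75 of 8873 tested features (0.845%) passed an adjusted p of 0.05 under the castrated-over-sham reading with limma, 65 higher (0.733%) and 10 lower (0.113%) in the castrated mice. The dye term of the fit passed for 0 features under the castrated-over-sham reading. Under the channel reading it passed for 231 (2.6%), 132 above 0 (1.49%) and 99 below (1.12%). Under the channel reading this term holds the deposited ratio common to the groups. The counts thus restate the contrast between the readings and are no separate check of dye bias. A further set of features was short of the threshold under the castrated-over-sham reading. An unadjusted p under 0.05 was found for 929, where 444 would be expected by chance. Under the channel reading 0 features (0%) passed, 66 had an unadjusted p under 0.05, and the smallest adjusted p was 1. With replicate 1, 2 or 3 of marrow left out, 6, 0 or 10 of them remained; the fit then has 2 marrow arrays, and without replicate 2 both have the same dye orientation. Without replicate 3 of the old group, which shares the estimate of the spread, 140 features passed. With the replicate number as a block over all 3 groups, young bone included, the count was 119, 94 higher and 25 lower. The split between higher and lower features moved with the settings. With all arrays given an equal SD 223 passed, 132 higher and 91 lower, and with the marrow arrays alone 207 passed, 125 higher and 82 lower.

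The 75 features carried 54 distinct gene names, 48 higher and 6 lower, besides 10 features without a gene and 1 that matches several. In each of the 71 with a ratio on all 3 marrow arrays the sign was the same on all 3. Among the higher ones, ratios ran from 0.41 to 1.45 on replicate 1 (median 0.75), from 0.28 to 1.32 on replicate 2 (median 0.70) and from 0.25 to 1.40 on replicate 3 (median 0.80). Their channel values, the fitted ratios under the channel reading, had a median of 0.063. Under that reading the dye term of the fit takes up the ratio common to all groups. A channel value is therefore not the mean of the turned ratios, and a value near 0 does not show that the pairs cancel. Of the 48 higher genes, 14 belong to a gene list of cell types or pathways drawn up for this work and 34 to none. The lists were chosen with earlier results of these data known. The shares of a list given below beside those of all features are therefore descriptive and not a test of the list. In what follows, the ratios of a gene are given in the order of replicates 1, 2 and 3, "rose" and "fell" mean past the adjusted threshold under the castrated-over-sham reading, and the value under the channel reading, where nothing passed, is given beside as the channel value.

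Genes of B lymphocyte development led the higher side. Vpreb3, which binds immunoglobulin chains inside early B cells, had log2 ratios of 1.11, 1.0 and 1.40, and it rose by a fitted 1.12 (SE 0.097, limma adjusted p = 0.00104; channel value 0.14). All 3 pairs lay at or above 1. Pou2af1, the coactivator that the octamer-binding factors use in B cells, had ratios of 1.04, 0.92 and 1.29 and rose by 1.07 (SE 0.10, limma adjusted p = 0.00152; channel value 0.15). Il7r, the receptor chain through which interleukin-7 sustains pro-B cells, had ratios of 0.87, 0.75 and 1.11 and rose by 0.89 (SE 0.094, limma adjusted p = 0.00321; channel value 0.11). For these 3 genes the swapped array gave the lowest ratio of the 3, yet was far above 0.

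Because Pou2af1 acts through the octamer element, the letters ATGCAAAT were searched on both strands in the RefSeq promoters of the genes that rose, each running from 250 bases before to 50 after an annotated start (GRCm38.p6). A promoter entry matched 36 of the 48 genes by symbol, with 55 promoters between them. The octamer was present in 2 of the 55 (3.64%), those of Vpreb3 and Chchd10, against 1.53% of 4894 promoters of all tested genes and 1.74% of all 32851 promoters. The Vpreb3 promoter, on the plus strand at chr10:75948050-75948349, holds it in reverse orientation from position -45, and that of Chchd10, on the plus strand at chr10:75932880-75933179, holds it in forward orientation from positions -83 and -70, counted from the start. A palindrome of the early B cell factor EBF1, TCCC and GGGA set 2 bases apart, was present in 1 of the 55 (1.82%), that of Foxo1 at chr3:52268087-52268386 on the plus strand, against 1.10% of the promoters of all tested genes. They are shown 5′ to 3′ with the octamers and the palindrome in capitals.
Vpreb3: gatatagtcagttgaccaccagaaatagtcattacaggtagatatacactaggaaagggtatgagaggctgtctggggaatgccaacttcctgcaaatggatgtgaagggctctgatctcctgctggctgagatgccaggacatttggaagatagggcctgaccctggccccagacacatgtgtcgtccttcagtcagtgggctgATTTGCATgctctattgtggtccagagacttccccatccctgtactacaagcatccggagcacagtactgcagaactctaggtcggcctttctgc
Chchd10: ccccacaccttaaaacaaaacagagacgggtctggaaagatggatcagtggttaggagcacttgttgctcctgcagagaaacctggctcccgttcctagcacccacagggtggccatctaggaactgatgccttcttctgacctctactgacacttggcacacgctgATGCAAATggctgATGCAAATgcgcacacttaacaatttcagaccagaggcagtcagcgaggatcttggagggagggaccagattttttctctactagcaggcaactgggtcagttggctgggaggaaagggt
Foxo1: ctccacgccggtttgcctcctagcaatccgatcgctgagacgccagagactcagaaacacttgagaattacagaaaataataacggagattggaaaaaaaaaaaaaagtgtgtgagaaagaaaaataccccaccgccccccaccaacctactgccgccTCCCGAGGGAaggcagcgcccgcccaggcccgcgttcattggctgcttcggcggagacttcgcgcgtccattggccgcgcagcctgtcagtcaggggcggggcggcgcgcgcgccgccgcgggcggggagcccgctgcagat
A match is a string of letters, not a measured binding site. Further strings searched on both strands were GTAAACA (FOXO factors, 0 of 55 promoters, 2.78% of those of all tested genes), ATCAAAG (LEF1, 0 of 55, 2.70%), GAGGAAGT (PU.1, 1 of 55, 1.82% against 3.58%), the palindromic E box CAGCTG (8 of 55, 14.5% against 14.1%) and TTGCNNAA (C/EBP factors, 7 of 55, 12.7% against 8.48%). The last of these can share letters with an octamer.

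Chchd10 and Vpreb3 are near neighbours on chromosome 10. Chchd10, a protein of the mitochondrial intermembrane space, had ratios of 0.64, 0.89 and 0.59 and rose by 0.77 (SE 0.091, limma adjusted p = 0.00437; channel value -0.058). Of the genes around them, Smarcb1, Mif and Slc5a4b were also tested, with fitted ratios of 0.24, 0.21 and -0.085 that did not pass, while Gm867, which lies between Chchd10 and Vpreb3, was not tested.

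Among 21 tested features of 13 transcription factors of early B cells, 10 features of 5 genes rose and none fell. Over all 8873 features 0.733% rose. The median fitted ratio of the list was 0.69, against 3e-04 over all features. This median counts features and not genes, so the repeated features of Foxo1, Sox4 and Bach2 weigh on it. It is the value of Id3, which did not pass. The risers were Pou2af1, Sox4, Lef1, Foxo1 and Bach2. Sox4, a factor that pro-B cells need to survive, had ratios of 0.81, 0.90 and 1.30 and rose by 0.98 (SE 0.11, limma adjusted p = 0.00321; channel value 0.17), and its other feature rose by 0.93 (channel value 0.069). Bach2, a repressor that guides early B cell commitment, had ratios of 1.12, 0.78 and 0.98 and rose by 0.94 (limma adjusted p = 0.00857; channel value 0.065), with 0.87 on its other feature (channel value 0.18). Lef1, the Wnt-responsive factor of pro-B cells, had ratios of 0.85, 0.85 and 1.07 and rose by 0.91 (limma adjusted p = 0.00321; channel value 0.085). The 4 features of Foxo1, which drives Il7r and the recombination genes, rose by 0.80, 0.81, 0.87 and 0.87 (channel values 0.10, 0.14, 0.08 and -0.01). The last 2 had no value on replicate 3 and rest on replicates 1 and 2. With replicate 1, 2 or 3 left out, 3, 0 or 3 features of this list passed, while its median was 0.78, 0.56 or 0.77.

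The remaining members of this list were near 0 or varied between pairs. Id3, an inhibitor of E proteins, had 0.82 and 0.56 on replicates 1 and 2 and no value on replicate 3 (limma adjusted p = 0.219, but 0.0264 with the replicate block). Tcf3, which encodes the E2A proteins, had 0.68 and 0.25 on replicates 2 and 3 (limma adjusted p = 0.348). Xbp1, the factor of antibody secretion, stayed between -0.15 and 0.24 over its 2 features, and Bcl11a between -0.03 and 0.21. Bcl6, which acts in mature germinal centre B cells, had ratios of -0.28, -0.14 and -0.40 that did not pass (fitted -0.27, limma adjusted p = 0.291).

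Parts of the B cell receptor complex and its signalling formed the next group. Of 17 features of 12 genes, 4 features of 3 genes rose and none fell, all 17 fitted ratios were above 0, and their median was 0.30. Over all tested features 0.733% rose and 50.1% of fitted ratios were above 0. Fcrla, an Fc receptor-like protein kept inside B cells, had ratios of 1.19, 1.05 and 1.17 and rose by 1.14 (SE 0.13, limma adjusted p = 0.00333; channel value 0.076); its other feature rose by 0.94 (channel value 0.14). The 3 pairs lay close together for this gene. Cd79b, the signalling chain of the receptor, had ratios of 0.84, 0.96 and 1.14 and rose by 1.0 (SE 0.14, limma adjusted p = 0.00857; channel value 0.024). Blk, a Src-family kinase of B cells, had ratios of 0.56, 0.87 and 0.65 and rose by 0.73 (SE 0.11, limma adjusted p = 0.0126; channel value -0.14). With replicate 1, 2 or 3 left out, 0 features of this list passed, while its median was 0.32, 0.28 or 0.24.

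The other members of the B cell receptor list gave smaller or uneven ratios, and none passed in the fit without the replicate block. Ms4a1, which encodes CD20, had -0.02, 0.16 and 0.99, so that 1 pair carried its fitted 0.38. Of 3 features of Cxcr5, the follicular homing receptor, 2 had 0.26 to 0.27 on replicate 1, 0.22 to 0.26 on replicate 2 and 0.88 to 0.91 on replicate 3, and the third stayed between 0.01 and 0.13. With the replicate block the former 2 passed (limma adjusted p = 0.0417 and 0.0461). Cd22, an inhibitory coreceptor, had 0.39, 0.17 and 0.43 (fitted 0.31), and Blnk, an adaptor of the receptor, 0.06, 0.32 and 0.53 (fitted 0.30). Btk stood at 0.03, Cr2 at 0.084, and Fcer2a at 0.051 and 0.044 on its features. In the list of the pre-B receptor, recombination and interleukin-7 signalling, 2 of 10 features (Vpreb3 and Il7r) rose, against 0.733% of all tested features. The median of that list was 0.077. Socs2, also in this list and a feedback inhibitor of cytokine signalling, had 0.77, 0.63 and 0.69 on a feature that fell short of the threshold (limma adjusted p = 0.0727, but 0.032 with the replicate block) and 0.18, 0.13 and 0.02 on another. The former also passed without the dye term, with the marrow arrays alone and with arrays of equal SD. Cish, in the same list, had -0.12, -0.10 and -0.25 and did not pass (fitted -0.11, limma adjusted p = 0.77). The features of Jak1, which make up much of this list, had fitted ratios from 0.0019 to 0.099.

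**Figure D2:**
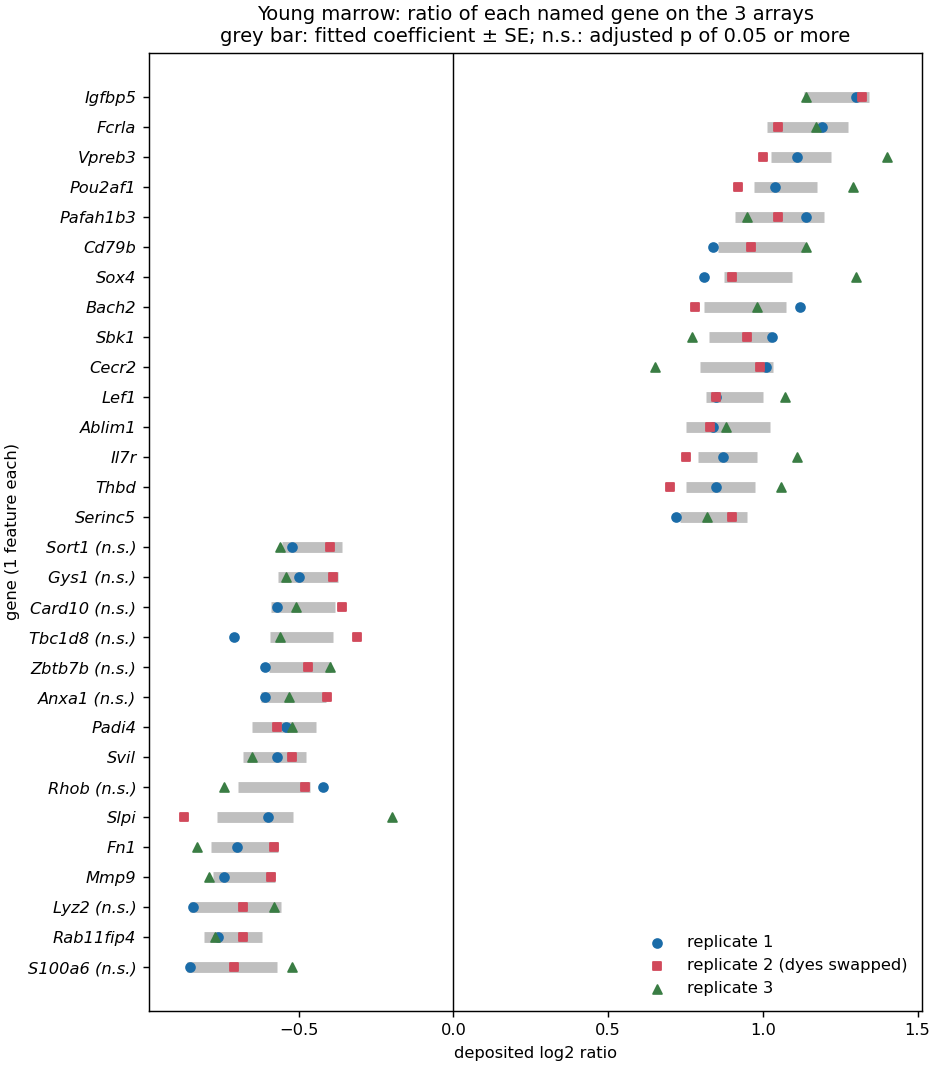
Deposited log2 ratios of the 15 genes with the largest rise and of 15 genes below 0 in young marrow, with points for replicates 1, 2 (dyes swapped) and 3 and a grey bar for the fitted ratio ± SE. The 3 points of every gene lie on a single side of 0, as the rule for naming them required. Of the genes below 0, 6 passed the limma test and 9, marked n.s., did not.

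The largest fitted rise of a named gene belonged to Igfbp5, a binding protein of insulin-like growth factors made by stromal cells and osteoblasts. It had ratios of 1.30, 1.32 and 1.14, and rose by 1.24 (SE 0.10, limma adjusted p = 0.00104; channel value 0.031). Its other feature had 1.45, 1.30 and 0.80 and rose by 1.18 (SE 0.16, limma adjusted p = 0.0073; channel value -0.0047). No other member of the list of marrow stroma and niche factors passed among 20 features of 13 genes (median 0.26). Cxcl12, the chemokine that retains B cell precursors and stem cells in the niche, came nearest: a feature with 0.52, 0.55 and 0.77 had a fitted ratio of 0.57 (limma adjusted p = 0.0544), and another with 0.42, 0.53 and 0.47 had 0.46 (limma adjusted p = 0.165). Angpt1 had 0.51, 0.29 and 0.58 on a feature with a fitted ratio of 0.45 (limma adjusted p = 0.228). Kitl, the stem cell factor, had -0.52, -0.45 and 0.17 on a feature and 0.38 and 0.30 on another that lacks replicate 3, so its features disagreed.

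Genes of bone matrix were split. Fn1, fibronectin, had ratios of -0.70, -0.58 and -0.83 on a feature that fell by 0.67 (SE 0.11, limma adjusted p = 0.0182; channel value -0.26) and -0.75, -0.54 and -0.91 on another that fell by 0.69 (channel value -0.31). All 6 values were below -0.5. Serpinh1, the collagen chaperone, had 0.84, 0.78 and 0.97, and its fitted 0.87 did not pass (SE 0.25, limma adjusted p = 0.181). Col1a1 had 0.50, 0.27 and 1.22 (fitted 0.61, limma adjusted p = 0.406) and Sparc 0.63, 0.40 and 0.81 (fitted 0.58, limma adjusted p = 0.407). Timp3, an inhibitor of metalloproteinases, had 0.70, 0.15 and 0.98 (fitted 0.56, limma adjusted p = 0.0536; channel value 0.42). The list of 26 features had a median of 0.07.

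Of the 6 named genes that fell, 3 belong to the list of late neutrophil genes. Among 18 features of 15 genes of the late granules and the mature cell, 3 features of 3 genes fell and none rose. In this list 17 of 18 fitted ratios were below 0, and the median was -0.52. Over all tested features 0.113% fell and 50.1% of fitted ratios were above 0. Mmp9, the gelatinase of the tertiary granules, had ratios of -0.74, -0.59 and -0.79 and fell by 0.68 (SE 0.099, limma adjusted p = 0.0113; channel value -0.17). Padi4, the enzyme that citrullinates histones when chromatin traps form, had -0.54, -0.57 and -0.52, nearly the same in every pair, and fell by 0.55 (SE 0.10, limma adjusted p = 0.0368; channel value -0.041). Slpi, a secreted inhibitor of elastase, was uneven at -0.60, -0.87 and -0.20 and fell by 0.64 (SE 0.12, limma adjusted p = 0.0412; channel value 0.23). Slpi did not pass without the dye term or with the marrow arrays alone, whereas it did with arrays of equal SD and with the replicate block.

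Several more members of this list were below 0 in every pair without passing. Lyz2, lysozyme, had -0.84, -0.68 and -0.58 (limma adjusted p = 0.0602, but 0.0323 with the replicate block), and Anxa1, annexin A1, had -0.61, -0.41 and -0.53 (limma adjusted p = 0.0544). Both features of Itgam, the CD11b integrin chain, lay between -0.81 and -0.46, and Cybb, the catalytic subunit of the oxidase, gave -0.67, -0.51 and -0.67. In contrast, Cyba, the partner of Cybb, lay between -0.02 and 0.14, and Il1b between -0.18 and 0.14. Of 5 features of the azurophil granule genes, none passed, with a median of -0.34. Ctsg had -0.75, -0.42 and -0.28 and Prtn3 -0.58, -0.20 and -0.35 on their features of smallest p. Among monocyte and macrophage genes 0 of 10 features passed (median -0.18). With the replicate block 1 feature of Pilra passed (limma adjusted p = 0.0287), and 4 features of Pilra and Ccr2 passed with the marrow arrays alone or with arrays of equal SD. Ccr2 had -0.52, -0.49 and -0.43 and Pilra -0.74, -0.57 and -0.48, while Adgre1 and Cx3cr1 stood near 0 at -0.0017 and -0.0081. The count of calls in the late neutrophil list moved with the settings, from 3 features to 10 once the arrays had an equal SD, to 5 with the replicate block and to 0 with replicate 1, 2 or 3 left out, where its median was -0.48, -0.47 or -0.57.

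Megakaryocyte and platelet genes were above 0 as a group, although none passed. Of 12 features of 9 genes, 11 fitted ratios were above 0, 10 were above 0 in every pair, and the median was 0.47. Over all tested features 50.1% of fitted ratios were above 0 and 20.7% of features with complete values were so in every pair. Itga2b, the platelet fibrinogen receptor chain, had 0.83, 0.69 and 0.62 (fitted 0.73, limma adjusted p = 0.0702). Pf4, platelet factor 4, had 0.47, 0.39 and 1.14 on a feature with a fitted ratio of 0.60 (limma adjusted p = 0.0535) and -0.09, -0.15 and -0.24 on another, so that its features disagreed. Nrgn, a calmodulin-binding protein found in platelets, had 0.58, 0.45 and 0.40 (fitted 0.47, limma adjusted p = 0.0661). With arrays of equal SD, or with the replicate block, 6 of the 12 features passed, and with the block the adjusted p was 0.00976 for Itga2b, 0.039 for Pf4 and 0.0492 for Nrgn (limma). Gng11, a G protein subunit that platelets carry, was outside the list and rose by 0.59 (0.49, 0.40 and 0.95; limma adjusted p = 0.0452; channel value 0.29).

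**Figure D3:**
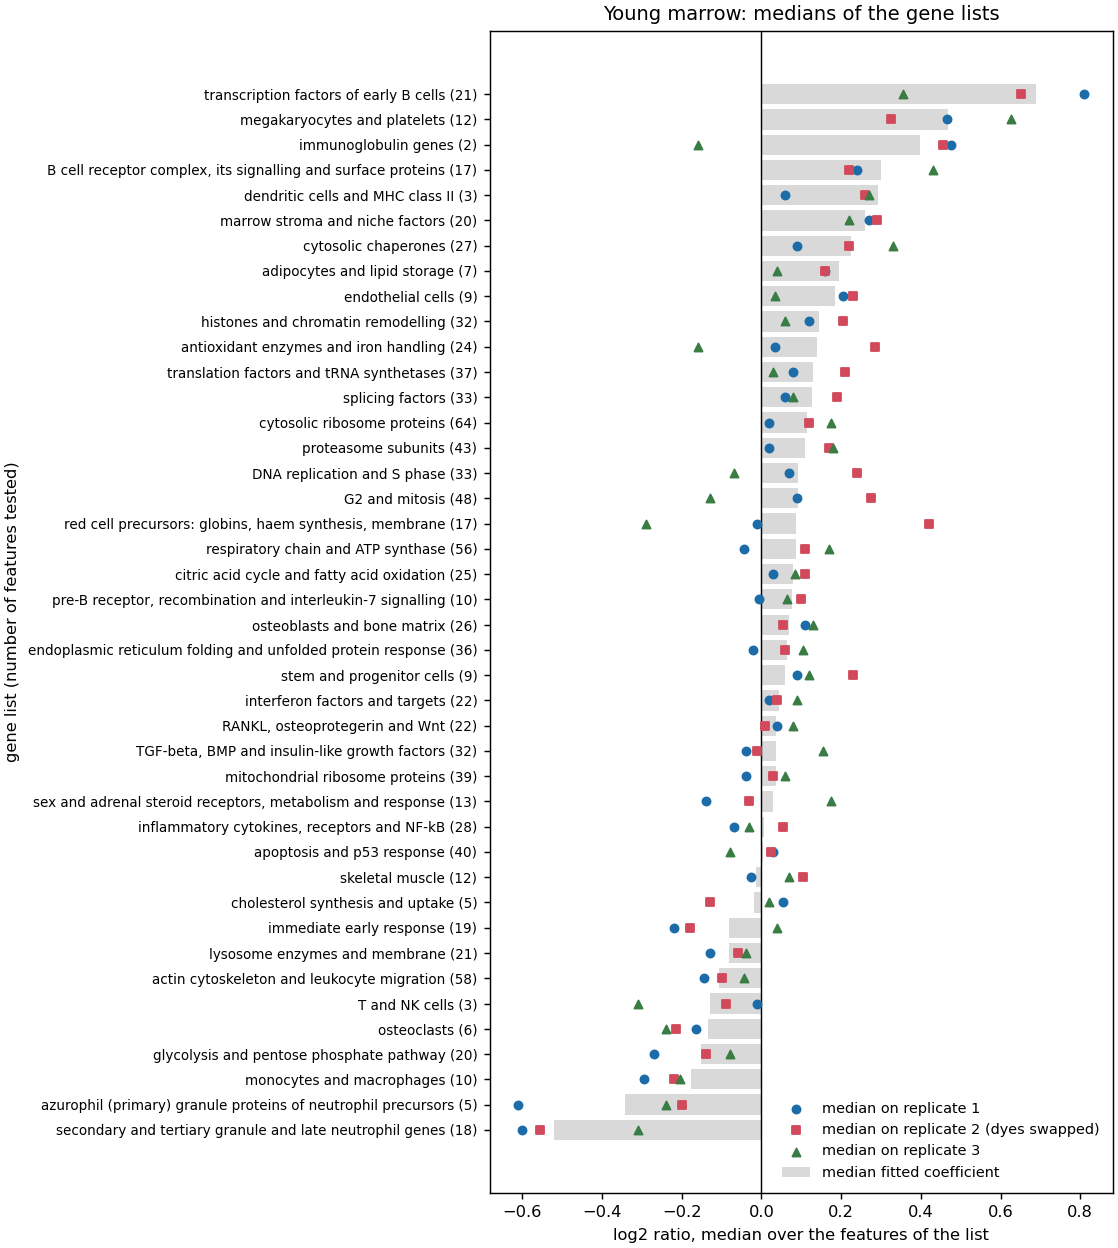
Median log2 ratio over the features of each gene list in young marrow, with a grey bar for the fitted ratio and points for replicates 1, 2 (dyes swapped) and 3. The number of tested features is in brackets, and a gene with several features counts several times. The transcription factors of early B cells (0.69) and the megakaryocyte genes (0.47) stand at the top and the late neutrophil genes (-0.52) at the bottom, and in the lists of red cell precursors, replication and mitosis the swapped array lies apart from the other 2.

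Most lists moved little. In 31 of 42 lists no feature passed. Several lists of housekeeping genes had a larger share of fitted ratios above 0 than all features (50.1%), with small medians. Ribosomal proteins had 57 of 64 fitted ratios above 0 with a median of 0.11, proteasome subunits 40 of 43 with 0.11, and cytosolic chaperones 26 of 27 with 0.22. In the last list 9 features of Hsp90aa1 lay between 0.28 and 0.40, and none passed. Glycolysis and the pentose phosphate pathway had 18 of 20 below 0 with a median of -0.15, led by Pkm at -0.43. The sex and adrenal steroid list, which holds Esr1, Nr3c1, Klf9 and Tsc22d3, had a median of 0.029 and 0 of 13 features passed. Its smallest adjusted p was 0.474 (limma), for Dusp1 at -0.24, and its median turned to -0.013 with the replicate block and to -0.055 without replicate 3. For replication (0.092), mitosis (0.091) and red cell precursors (0.087) the medians were above 0 on the swapped array alone or most clearly there. They were 0.24, 0.28 and 0.42 on replicate 2 but -0.07, -0.13 and -0.29 on replicate 3, and without replicate 2 that of the red cell precursors turned to -0.074.

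Other cell types that marrow could carry gave these values. The median of 12 skeletal muscle features was -0.014 in marrow and -0.37 in young bone, that of 9 endothelial features 0.19, and that of 3 T and NK cell features -0.13. The medians of the early B cell transcription factors and of the B cell receptor list were above 0, and those of both neutrophil lists below 0, in the same 3 pairs. Their part in each other's ratios was not tested.

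Genes outside the lists account for 34 of the 48 that rose. Several of them are signalling proteins. Pde4b, a phosphodiesterase that degrades cyclic AMP, rose on 3 of 4 features (0.51, 0.62 and 0.67, with channel values of -0.054, 0.039 and 0.011), and had 0.28 on the fourth. Sbk1, a kinase, had 1.03, 0.95 and 0.77 and rose by 0.93 (SE 0.10, limma adjusted p = 0.00321; channel value 0.013). Rhoh, a GTPase of blood cells that does not hydrolyse GTP, had 0.75, 0.68 and 0.98 and rose by 0.83 (limma adjusted p = 0.0356; channel value 0.12). Ralgps2, an exchange factor of Ral GTPases, rose by 0.58 (channel value -0.0044), Diras2 by 0.58 (0.17), Rhoq by 0.49 (0.091) and the ceramide kinase Cerk by 0.63 (-0.0303). Nuak1, an AMPK-related kinase, rose by 0.76 (channel value 0.02) with 0.74 and 0.78 on replicates 2 and 3 and no value on replicate 1.

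Surface and secreted proteins came next. Thbd, thrombomodulin, had ratios of 0.85, 0.70 and 1.06 and rose by 0.86 (SE 0.11, limma adjusted p = 0.00658; channel value 0.25); its other feature was at 0.19, 0.24 and 0.60 and did not pass. Serinc5, a multipass membrane protein, had 0.72, 0.90 and 0.82 and rose by 0.84 (SE 0.11, limma adjusted p = 0.00658; channel value 0.0094). St6gal1, which adds sialic acid to glycans of the B cell surface, had 0.75, 0.85 and 0.61 and rose by 0.76 (limma adjusted p = 0.0126; channel value -0.03). Siglecg, a sialic acid receptor that dampens B cell signals, had 0.84, 0.66 and 0.49 and rose by 0.67 (limma adjusted p = 0.0172; channel value -0.029). Kcna3, a potassium channel of lymphocytes, rose by 0.55 (channel value 0.11). Clu, the secreted chaperone clusterin, had 0.55, 0.58 and 1.01 and rose by 0.73 (limma adjusted p = 0.0455; channel value 0.21), and its other feature, at 0.66, 0.51 and 1.05, fell short (limma adjusted p = 0.062).

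Nuclear proteins formed a further set. Cecr2, a bromodomain protein of chromatin remodelling complexes, had 1.01, 0.99 and 0.65 and rose by 0.91 (SE 0.12, limma adjusted p = 0.00658; channel value -0.067). Smarca4, the BRG1 ATPase of the SWI/SNF complex, had 0.62, 0.57 and 0.51 and rose by 0.60 (limma adjusted p = 0.0188; channel value 0.012). Both belong to the list of histones and chromatin remodelling, of which 2 of 32 features rose, against 0.733% of all tested features. Foxp1, a forkhead factor that B cell formation requires, had 0.75, 0.54 and 0.53 and rose by 0.57 (limma adjusted p = 0.0235; channel value 0.055), and 2 more features had 0.55 and 0.18 and did not pass. Aff3, a nuclear protein of lymphoid cells, rose by 0.54 (channel value -0.061) on 1 of 5 features, and the other 4 ranged from -0.075 to 0.39. Foxp2 rose by 0.71 (channel value 0.051) on a feature, while 2 others stood at 0.035 and 0.0036. Hmgn3, a nucleosome-binding protein, rose by 0.55 (channel value 0.12), and its other features, at 0.39 and 0.47, did not pass.

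Proteins of the cytoskeleton and of metabolism completed the higher side. Ablim1, an actin-binding protein, had 0.84, 0.83 and 0.88 and rose by 0.89 (SE 0.14, limma adjusted p = 0.0131; channel value 0.063), whereas its other feature was at 0.01, -0.03 and 0.01. Bfsp2, known as a filament protein of the eye lens, had 0.76, 0.68 and 1.08 and rose by 0.83 (limma adjusted p = 0.0312; channel value 0.16). The actin bundler Pls1 rose by 0.75 (channel value 0.33) and the myosin light chain Myl4 by 0.72 (0.12), in each case with the highest ratio on replicate 3 (1.14 and 1.01). Pafah1b3, a catalytic subunit of platelet-activating factor acetylhydrolase, had 1.14, 1.05 and 0.95 and rose by 1.05 (SE 0.14, limma adjusted p = 0.0073; channel value 0.042). Scd1, the desaturase that makes monounsaturated fatty acids, was uneven at 0.92, 0.28 and 0.78, with the lowest value on the swapped array, and rose by 0.62 (limma adjusted p = 0.0349, 0.0889 with arrays of equal SD; channel value 0.16). It was the only gene called among 7 of the adipocyte list. Glcci1, a transcript induced by glucocorticoids in thymocytes, rose by 0.70 (channel value -0.031), the interferon-inducible Ifi214 by 0.69 (0.15), Trp53i11 by 0.67 (0.096) and Ankrd10 by 0.64 (-0.019). C2cd2l rose by 0.60 (channel value 0.015), Fbxl12 and Amn1 by 0.59 each (0.093 and 0.031), Strn3 by 0.55 (-0.094) and AU020206 by 0.48 (0.069).

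On the lower side, Rab11fip4, an effector of the recycling GTPase Rab11, fell furthest among named genes outside the lists. Its ratios were -0.76, -0.68 and -0.77, and it fell by 0.71 (SE 0.093, limma adjusted p = 0.00658; channel value -0.15). Svil, the actin- and myosin-binding supervillin, had -0.57, -0.52 and -0.65 and fell by 0.58 (limma adjusted p = 0.0275; channel value -0.13), while its 4 other features had fitted ratios of -0.23 to -0.31 and did not pass. An unnamed feature had the largest fall of all, at -0.95, -1.33 and -1.01 (fitted -1.13, limma adjusted p = 0.0073); the annotation used here gives it no gene. Beyond the 6 genes that fell, the next by p did not pass: Rhob, a stress-inducible GTPase (-0.42, -0.48 and -0.74), Zbtb7b (-0.61, -0.47 and -0.40), S100a6 (-0.85, -0.71 and -0.52), Gys1 (-0.50, -0.39 and -0.54), Tbc1d8, Sort1 and Card10, with limma adjusted p from 0.0506 to 0.0645. With arrays of equal SD all 7 passed, and with the replicate block Zbtb7b and S100a6 did (limma adjusted p = 0.042 and 0.0382).

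Genes spotted more than once allow a check within the arrays. Of the 54 genes called, 7 had several called features and 12 had other features that did not pass, 21 in all. The sign was that of the called feature in 18 of these 21. The widest gaps were those of Ablim1 (0.89 against -0.011) and Amn1 (0.59 against -0.17), where the sign changed too. Of Strn3, the called feature had 0.58, 0.46 and 0.58, and another had 0.54, -0.63 and 0.49. On the latter, the swapped array alone lay below 0, and the channel value was 0.51.

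The fitted ratios of 53 called genes were followed with each marrow pair left out. None changed sign, which was largely fixed beforehand, since these genes were taken for having 1 sign on all 3 marrow arrays. The fitted ratios were 81.8% to 115% of their size without replicate 1, 87% to 129% without replicate 2 and 75.1% to 115% without replicate 3. With 2 pairs left, 47 of the 53 lost the call without replicate 1, all 53 without replicate 2 and 45 without replicate 3. Igfbp5, Vpreb3, Pou2af1, Sox4, Lef1 and Il7r kept it without replicate 1 and also without replicate 3. Without replicate 2 the fitted ratio of Igfbp5 was 1.12 (limma adjusted p = 0.0911).

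Under the channel reading, the genes of smallest unadjusted p in each direction were Cmtr1 (0.37), Acad8 (0.54), Pcyox1 (0.60), Bcl7a (0.43) and Rufy3 (0.33) above 0, and Cotl1 (-0.49), Dmtn (-0.39), Gprc5a (-0.25), Kel (-0.32) and Fech (-0.36) below 0. None passed, with limma unadjusted p from 0.00423 to 0.0365. Most of their deposited ratios differ in sign between the swapped and the unswapped arrays, as with Fech, the last enzyme of haem synthesis, at -0.18, 0.59 and -0.39, and Kel, a red cell surface antigen, at -0.04, 0.39 and -0.53. Pcyox1 had -0.16, -1.22 and 0.50, and the sizes differed widely between the arrays. Cotl1, an actin-binding protein, at -0.98, -0.44 and -1.37, was below 0 in every pair, with a fitted ratio of -0.88 under the castrated-over-sham reading (limma adjusted p = 0.115). Cmtr1 had 0.63, -0.03 and 0.74. The 17 features of red cell precursors had a median channel value of -0.24 and a median of 0.087 under the other reading.

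Marrow was set against young bone to compare the response in both tissues at the same age. No feature passed for the difference (0 of 8873, 0%; 455 at an unadjusted p under 0.05, 444 expected; smallest limma adjusted p 0.113). The sign of the fitted ratio was the same in young bone for 71 of the 75 called features (94.7%), against 58.2% of all tested features. Of the 75, 18 (24%) also passed there, against 0.259% of all. The ratios of both tissues come from the same fit, which shares the spread and the dye term of each feature. A small shared spread helps a feature to pass in both, so the share of all features is no neutral baseline. Fn1 had the smallest p of a named gene, with -0.75, -0.54 and -0.91 in marrow and 0.51, -0.08 and 0.42 in bone. The groups did not overlap, and the difference was -1.02 (SE 0.16, unadjusted p = 5.22e-05, limma adjusted p = 0.174). Rab11fip4 differed by -0.70, with -0.01, -0.13 and 0.02 in bone (limma adjusted p = 0.429). Rhob differed by -0.78 on a feature and by 0.12 on another, which thus disagreed. Timp2, an inhibitor of metalloproteinases, differed by -0.83, with 0.22, 0.92 and 0.40 in bone, and Cpd differed by -0.68. Above 0, Clec1b, the platelet receptor of podoplanin, had 0.46, 0.35 and 1.07 in marrow and 0.00, -0.43 and -0.12 in bone (difference 0.81, limma adjusted p = 0.872). Gng11 (0.65), Nrgn (0.57), Aldh1a1 (0.70) and Eif2s2 (0.47) followed.

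Marrow was set against the old group to compare the response at both ages; the old specimens may hold bone, so age and tissue cannot be told apart. No feature passed (0 of 8873, 0%; 1292 at an unadjusted p under 0.05, 494 above and 798 below 0; smallest limma adjusted p 0.0536). Without replicate 3 of the old group 885 passed. All 75 called features had the same sign in the old group, against 44.9% of all tested features. Of the 75, 34 (45.3%) passed there too, against 0.733% of all. The limit of the shared fit holds for the old group as well. The smallest p belonged to 2 genes with little ratio in young marrow. Malat1, a nuclear long noncoding RNA, had 0.07, -0.12 and -0.02 in young marrow and 1.76, 0.86 and 1.25 in the old group (difference -1.31, SE 0.17, limma adjusted p = 0.0536). Spink5, a protease inhibitor of epithelia, had -0.11, -0.25 and -0.10 against 0.98, 0.66 and 0.81 (difference -0.97, limma adjusted p = 0.0536). Gli2 (-0.90), Strn3 (-0.87) and Six4 (-1.13) were next below 0. Above 0 stood Xist (0.86; -0.17, -0.39 and -0.16 against -1.19, -1.13 and -0.98), the matrix protein Mgp (1.01; -0.14, -0.20 and -0.18 against -1.55, -1.21 and -0.80), Egr1 (1.34), Nol12 (0.52) and Glo1 (0.49). In most of these genes the young marrow ratios were near 0 and the distance came from the old group.

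**Figure D4:**
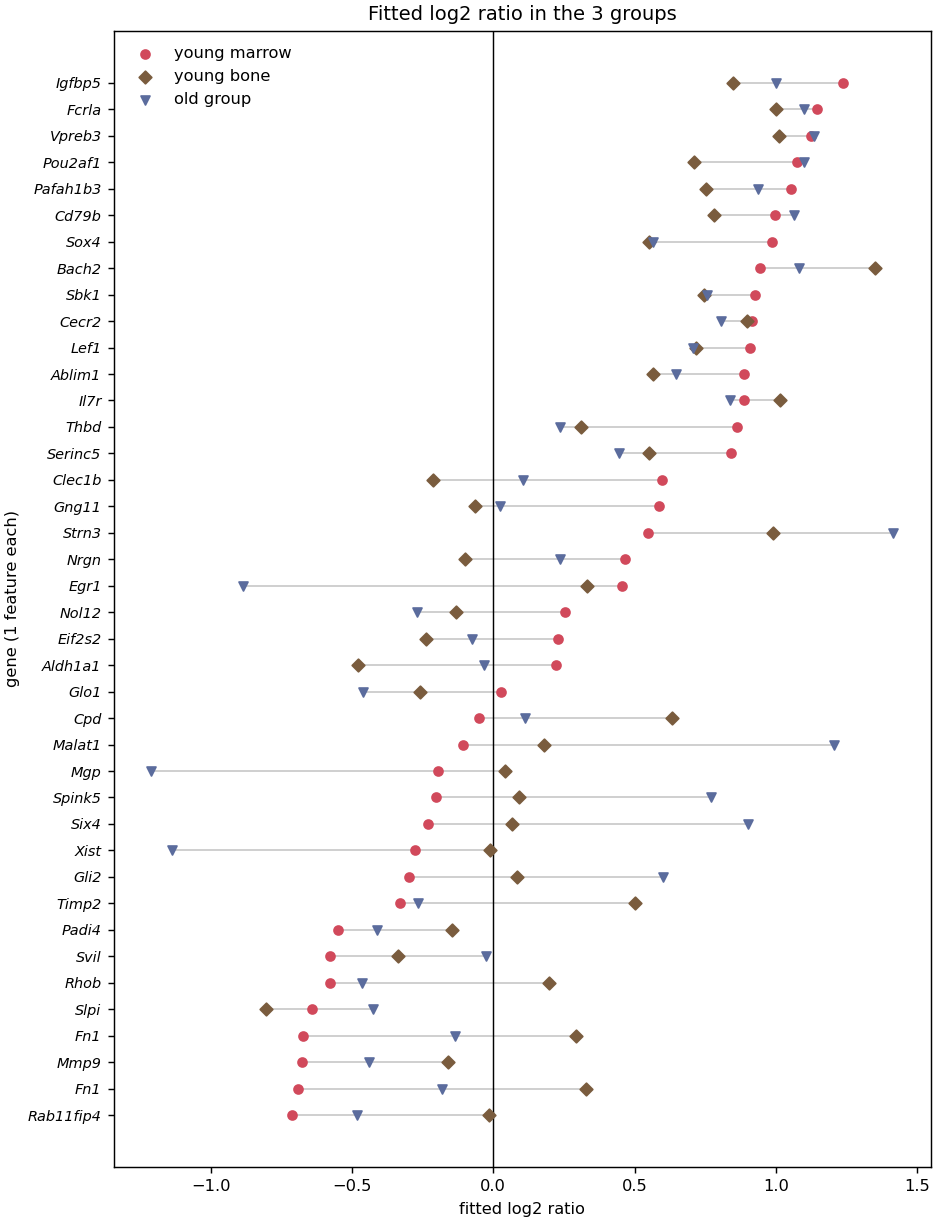
Fitted log2 ratio under the castrated-over-sham reading in young marrow (circles), young bone (diamonds) and the old group (triangles) for the genes with the largest rise or fall in marrow and those of smallest p for a difference; Fn1 is plotted as 2 features. The B cell genes at the top lie above 0 in all 3 groups, and Fn1 lies below 0 in marrow (-0.69) and above 0 in young bone (0.33); none of the differences passed.

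The genes that led the higher side in marrow were also above 0 in the other groups. Vpreb3 had fitted ratios of 1.12 in marrow, 1.01 in young bone and 1.14 in the old group, Fcrla 1.14, 1.0 and 1.10, and Il7r 0.89, 1.02 and 0.84. Igfbp5 had 1.24, 0.85 and 1.0. For these 4 genes the unadjusted p of a difference ranged from 0.021 (Igfbp5, against bone) to 0.923, and none passed the adjusted threshold. Thbd was further apart, at 0.86 in marrow against 0.31 in bone and 0.24 in the old group, with unadjusted p of 0.00448 and 0.002 that did not pass after adjustment. Pls1 (0.75, 0.055 and 0.17) and Clu (0.73, 0.16 and 0.12) were likewise highest in marrow, also short of the adjusted threshold. A difference that does not pass is not evidence of an equal response, since 3 pairs per group limit the precision: in simulated data, 58% of features that differed by 1 between marrow and bone were recovered and 4% of those that differed by 0.5.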

How the data were processed

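The deposited values are the authors' log ratios of 2-colour arrays, 1 column per array, read here as log2. Their log base, direction, background correction and normalization are not given in the sources used here. No scanner file was used, so spot quality could not be checked. Samples were grouped by their titles. Of 11552 features, the platform annotation gave 1 gene for 8050, several for 672 and none for 2830; 7880 were matched by gene ID to RefSeq, and only features with 1 gene were named. The test took the 8873 features measured on 2 or more arrays per group, 1 or more of the swapped arrays among them. A set of control spots of other organisms was left out after the values had been seen.

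All 9 arrays were fitted with limma 3.58.1 in R 4.3.3 (lmFit and eBayes), with a coefficient for each of the 3 groups and a common dye term, 5 residual degrees of freedom, and Benjamini-Hochberg adjustment over all features at 0.05. Within a group each array is a separate pair of mice, per the labels; the fit treats all 9 as separate, although young marrow and young bone may share mice. Leaving out an array leaves 2 in its group. In simulated data on 8873 features, 90% of features set to a log2 ratio of 1 in marrow were recovered and 29% of those set to 0.5.

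Same-numbered arrays of marrow and the old group deviated together from their group means (r = 0.576, 0.259 and 0.3 across features). Those of marrow and young bone did not (r = -0.089, -0.349 and -0.079). The swapped array is replicate 2 in marrow and in the old group but replicate 3 in young bone. Same-numbered arrays therefore share the dye orientation throughout only in marrow and the old group. No dye term was taken out of these deviations, and the swapped arrays of marrow and young bone gave r = 0.332. The part of the dyes in these correlations was not tested. By a preset limit the numbers were taken to pair marrow with the old group, although the mice differ in age. The block was nevertheless fitted by number over all 3 groups, so it also ties young bone to marrow. Values with the replicate number as a block are given where they change the call of a gene named.

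The rule for naming took, among features with 1 gene and a value on every marrow array, the 15 most changed of those called in each direction with 1 sign on 3 arrays (filled by smallest p where fewer passed), the 5 of smallest p in each direction for the channel reading and each difference, the called members of each list or else the 2 of smallest p, and other features of genes so named. Other genes were named after their values had been seen. The genes and lists were chosen with earlier results of these data known. Promoters and their build (GRCm38.p6) are from RefSeq. Alternatives changed the dye term, the arrays fitted, centring, scale, filter, weights, block and averaging.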

Additional observations from a re-analysis of the deposited data

Results flagged for a closer look

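In 3 gene lists the median ratio lay on opposite sides of 0 in young marrow and in another group on every array, and the difference between the groups was not tested for any of them. Marrow stroma and niche factors (median fitted log2 ratio 0.2586 in marrow) had medians of 0.27, 0.29 and 0.22 on the marrow arrays and -0.03, -0.01 and -0.02 on the young bone arrays, which are all but 0. Proteasome subunits (0.1083 in marrow) had 0.02, 0.17 and 0.18 on the marrow arrays against -0.20, -0.20 and -0.06 on those of the old group. Translation factors and tRNA synthetases (0.1283 in marrow) had 0.08, 0.21 and 0.03 against -0.10, -0.05 and -0.05.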

How the results depend on the processing

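The 75 features called in marrow under the castrated-over-sham reading became 207 with the marrow arrays alone, 223 with arrays of equal SD, 1548 with array weights (4.02 for replicate 2 of marrow and 0.423 for replicate 1 of the old group) and 119 with the replicate block. With 1 array left out they ranged from 0 (without replicate 2 of marrow, 472 at an unadjusted p under 0.05) to 140 (without replicate 3 of the old group). Counts for the other settings were 53 to 101. The channel reading gave 0 under every setting run. The difference from young bone gave 0 except for 5 with array weights. That from the old group gave 0 except for 2 over features present on all 9 arrays, 481 with array weights and, with 1 array left out, a range of 0 to 885, the highest without replicate 3 of the old group. The replicate block brought Zbtb7b, S100a6 and Lyz2 past the threshold (limma adjusted p = 0.042, 0.0382 and 0.0323) and changed no other call among the 62 features with the largest changes. Among members of the lists it also called features of Clec1b, Cxcr5, Id3, Ifi47, Itga2b, Ncf4, Nrgn, Pf4, Pilra, Selp and Socs2 (limma adjusted p from 0.00976 to 0.0492) and lost none that could be fitted. Under the channel reading 13 named features changed sign, namely Cecr2 (-0.067), Chchd10 (-0.058), St6gal1 (-0.03), Blk (-0.14), Glcci1 (-0.031), Siglecg (-0.029), Ankrd10 (-0.019), Cerk (-0.0303), Ralgps2 (-0.0044), Strn3 (-0.094), Aff3 (-0.061), Pde4b (-0.054) and Slpi (0.23). Each value in brackets was fitted beside a dye term, which under this reading takes up the ratio common to all groups. Its sign can thus differ from that of the mean of the turned ratios. The cause was not tested for the changes with the other settings. The control spots, kept as a setting chosen after seeing the data, left the count at 75. The number of pairs, 3 per group, limits the precision.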

Other observations

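The largest single ratios were not among the called features. A ratio past 1.5 in size was found for 10 features, chosen after their values were seen: 6 on replicate 2, 4 on replicate 3 and 0 on replicate 1. None of the 10 was called under the castrated-over-sham reading. Both features of Angptl1, an angiopoietin-like secreted protein, had -2.12 and -2.08 on replicate 2, the swapped array, against -0.47 and -0.50 on replicate 1 and 0.20 and 0.21 on replicate 3. Csta1, a cysteine protease inhibitor, had 0.05, -0.69 and 1.76. An unnamed feature with 0.48, -0.86 and 3.35 had the highest ratio of the 3 arrays, with a channel value of 1.43 (limma unadjusted p = 0.0102) that did not pass after adjustment.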
